A study of Mus musculus with 12 samples.

Results

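The genes described here are 49 genes of the cell cycle, 23 that act in DNA replication (S phase) and 26 that act in mitosis, chosen by name. Each was followed through the probe set that carried its symbol alone and, where there were several, had the highest mean over the 12 arrays. All 23 replication genes and 25 of the 26 mitosis genes were measured, 48 of the 18193 genes in all. Ccnb1, a mitotic cyclin gene, had no probe set with its symbol alone in the annotation used, and no value is given for it. The arrays held total RNA of tumours of 3 mouse lung adenocarcinoma lines, with 4 arrays a line: 344SQ (highly metastatic), 393LN (intermediately metastatic) and 393P (non-metastatic). All 3 lines were cultured from tissue of p53R172H∆g/+ K-rasLA1/+ mice, which carry a mutant p53 allele and an allele of oncogenic K-ras, and the tumours measured were grown in syngeneic mice and dissected free of neighbouring tissue. 344SQ came from a subcutaneous site of one animal, whereas 393LN (mediastinal lymph node) and 393P (primary lung tumour) both came from another. Each line is a mass culture from 1 site, so in both comparisons of 344SQ the metastatic class, the animal of origin and the line itself cannot be told apart. In 393LN against 393P the same holds for the metastatic class, the site of origin and the line itself. The labels do not say that the 4 samples of a line came from separate animals, and p-values here measure only the spread between these samples.

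Cells that commit to divide turn on replication genes first and mitosis genes later. In textbook accounts, E2F factors drive the first wave around the entry into S phase: origins are licensed by loading the MCM helicase with the help of Cdc6 and Cdt1, primase and polymerase alpha start new strands, and ribonucleotide reductase supplies deoxynucleotides. The second wave, driven by the MuvB complex with B-Myb and Foxm1 through CHR elements and by the factor NF-Y through CCAAT boxes, provides the cyclins, kinases, motors and checkpoint proteins of mitosis. Both waves are commonly read as measures of proliferation in tumours. In RNA of a whole tumour, fewer cycling cells and less RNA of a gene per cell cannot be told apart.

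The promoters of 6 genes are shown because they carry the motifs these waves are named for and belong to genes that passed the test in the comparisons that follow. The sequences are from RefSeq (GRCm38.p6) and run 5′ to 3′ along the gene's strand, from 250 bases before the annotated start to 50 bases after it. Capitals mark matches on either strand to the E2F site (TTCCCGC or TTCGCGC or TTGCCGC or TTGGCGC), the CHR (TTTGAA or TTCGAA) and the CCAAT box. Mcm3 (chr1:20820263-20820562, minus strand) encodes a helicase subunit, Pola1 (chrX:93632106-93632405, minus) the catalytic subunit of polymerase alpha, Cdt1 (chr8:122567765-122568064, plus) a licensing factor and Rrm2 (chr12:24708004-24708303, plus) the small subunit of ribonucleotide reductase. Ube2c (chr2:164769679-164769978, plus) encodes a ubiquitin-conjugating enzyme of the anaphase promoting complex and Top2a (chr11:99024140-99024439, minus) a topoisomerase that untangles chromosomes.
Mcm3: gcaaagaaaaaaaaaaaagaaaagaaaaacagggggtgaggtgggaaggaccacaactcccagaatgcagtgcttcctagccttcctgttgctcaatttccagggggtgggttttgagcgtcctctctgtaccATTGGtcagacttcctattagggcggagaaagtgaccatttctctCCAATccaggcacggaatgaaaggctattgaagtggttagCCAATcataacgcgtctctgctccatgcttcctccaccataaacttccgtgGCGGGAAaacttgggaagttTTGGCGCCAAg
Pola1: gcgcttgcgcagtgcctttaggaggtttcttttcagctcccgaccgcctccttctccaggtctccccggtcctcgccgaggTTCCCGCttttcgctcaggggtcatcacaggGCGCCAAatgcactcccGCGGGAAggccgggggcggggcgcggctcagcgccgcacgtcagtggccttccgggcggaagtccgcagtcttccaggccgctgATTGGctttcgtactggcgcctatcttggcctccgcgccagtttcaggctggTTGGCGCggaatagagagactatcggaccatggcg
Cdt1: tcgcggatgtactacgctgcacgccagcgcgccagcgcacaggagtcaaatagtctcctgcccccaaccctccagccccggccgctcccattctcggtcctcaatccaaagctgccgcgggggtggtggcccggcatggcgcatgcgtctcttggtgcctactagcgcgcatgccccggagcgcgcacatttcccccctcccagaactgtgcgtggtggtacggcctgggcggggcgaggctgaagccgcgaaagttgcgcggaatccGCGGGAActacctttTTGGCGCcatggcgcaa
Rrm2: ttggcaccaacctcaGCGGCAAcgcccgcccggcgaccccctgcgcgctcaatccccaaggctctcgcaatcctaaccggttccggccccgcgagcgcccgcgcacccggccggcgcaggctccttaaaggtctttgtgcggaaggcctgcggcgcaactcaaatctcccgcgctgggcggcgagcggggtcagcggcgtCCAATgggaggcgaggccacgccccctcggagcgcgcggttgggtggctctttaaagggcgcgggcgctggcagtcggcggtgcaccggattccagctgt
Ube2c: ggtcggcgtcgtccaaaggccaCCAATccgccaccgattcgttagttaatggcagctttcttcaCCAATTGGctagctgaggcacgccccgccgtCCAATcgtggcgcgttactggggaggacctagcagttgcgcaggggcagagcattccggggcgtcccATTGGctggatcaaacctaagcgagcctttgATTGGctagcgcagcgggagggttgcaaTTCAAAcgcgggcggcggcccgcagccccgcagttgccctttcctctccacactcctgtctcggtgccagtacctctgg
Top2a: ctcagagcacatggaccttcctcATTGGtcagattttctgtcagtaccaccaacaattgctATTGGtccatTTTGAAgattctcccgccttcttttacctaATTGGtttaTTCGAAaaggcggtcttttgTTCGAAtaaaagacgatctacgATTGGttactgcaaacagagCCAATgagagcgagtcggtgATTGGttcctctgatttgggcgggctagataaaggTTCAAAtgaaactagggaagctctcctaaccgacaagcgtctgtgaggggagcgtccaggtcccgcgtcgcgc

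The 4 replication promoters shown, chosen for their motifs, held E2F matches and no CHR match. Mcm3 had 3 E2F matches, of which the last and the one before it overlap in a palindrome, Pola1 had 4, Cdt1 had 2 and Rrm2 had 1. Neither mitosis promoter shown held an E2F match: Ube2c had 1 CHR match and 6 CCAAT boxes, of which 2 overlap, and Top2a had 4 CHR matches and 6 CCAAT boxes. Promoters of other genes that passed did not all divide this way. Rrm1, Prim1 and Cdc6 held an E2F and no CHR match, and Aurka a CHR and no E2F match. By contrast, Mcm2 held a CHR and no E2F match, Rfc3 held both, and Mad2l1 held neither. Of the 49 genes, 39 had a promoter entry. Of 22 replication promoters (19 genes), 63.6% held an E2F match, 22.7% a CHR match and 63.6% a CCAAT box. Of 21 mitosis promoters (20 genes), 14.3% held an E2F match, 76.2% a CHR match and 85.7% a CCAAT box. Among all 32851 RefSeq promoters of that length the shares were 9.57%, 19.2% and 37.4%. A match is a run of letters in this window and not a measured binding site. There was no entry for Ccne2, Aurkb, Cdc25c, Gins1, Gins2, Mcm4, Kif20a, Foxm1, Ccna2 or Tpx2.

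All levels are log2(intensity + 16) of the deposited values, on which 4.09 is the floor, and a change is a difference of line means on that scale, so that a change of 1 is a 2-fold difference. Array medians lay between 7.19 and 7.29. The actin 3'/5' ratio, which tracks RNA integrity, reached 1.474 on 393P replicate 1 against 1.035 to 1.189 on the other arrays. The words rose and fell are kept for genes with a limma p below 0.05 after adjustment over all 18193 genes. One array stood apart in these genes before any line was compared: 344SQ replicate 1 was the lowest of the 12 arrays for 30 of the 48 genes (16 replication, 14 mitosis) and the lowest of its own line for 40. The median of that array over all probe sets was 7.28, and how often it was the lowest over all genes was not counted. The counts of genes that passed, in these and in the further lists, and the line means are given with and without 344SQ replicate 1.

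344SQ tumours had lower levels of part of the replication machinery than either 393 line. Some mitosis genes were also lower, 5 of 25 against 393P and 2 of 25 against 393LN, the latter near the share of all genes. Rrm2 was higher in 344SQ than in 393P. Against 393P, 4 of 23 replication genes fell (Mcm2, Mcm3, Mcm4 and Rrm1) and 1 rose (Rrm2), which is 21.7% of them where 10.5% of all genes passed the test (4.86% higher and 5.62% lower in 344SQ). The median log2 change of the 23 was -0.38, with 19 changes below 0, against a median of -0.00 over all genes. Of the mitosis genes 5 fell and none rose, 20% of 25: Ube2c, Aurka, Mad2l1, Top2a and Tpx2. The median log2 change of the mitosis genes was -0.12, with 20 of 25 below 0. At an unadjusted p under 0.05 stood 11 of 23 replication and 5 of 25 mitosis genes, where 23.6% of all genes did. The mitosis genes were below that share. The 4 values of 344SQ lay wholly below the 4 of 393P for 8 replication and 5 mitosis genes, and wholly above them for 1 replication gene. Over all genes the shares were 8.62% below and 8.12% above, 16.7% in either direction.

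Against 393LN, 8 of 23 replication genes fell in 344SQ and none rose: Mcm2, Mcm3, Mcm4, Cdc6, Cdt1, Pola1, Prim1 and Rfc3. That is 34.8% of them, where 10.9% of all genes passed the test (3.99% higher, 6.92% lower). Of the mitosis genes 2 fell, Aurka and Top2a, which is 8% of 25 and near the 6.92% of all genes that were lower. The median log2 change was -0.39 for the replication genes and -0.21 for the mitosis genes, against -0.02 over all genes. At an unadjusted p under 0.05 stood 13 of 23 replication and 6 of 25 mitosis genes, where 25.7% of all genes did. The mitosis genes were again below the share of all genes. The 344SQ values lay wholly below those of 393LN for 9 replication and 5 mitosis genes and wholly above for none of either. Over all genes 10.7% lay wholly below and 6.72% wholly above, 17.4% in either direction. The comparisons with 393P and with 393LN share the 4 344SQ arrays, and their counts are not independent of each other.

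Between 393LN and 393P tumours 1 of the 48 genes passed the test. Rrm2 rose in 393LN, 1 of 23 replication genes (4.35%), where 2.45% of all genes passed the test (1.75% higher, 0.698% lower). None of the 25 mitosis genes passed in limma (0), and 1 of them was under an unadjusted p of 0.05, as were 5 replication genes and 15.7% of all genes. Median log2 changes were 0.05 for replication genes, 0.02 for mitosis genes and 0.01 over all genes. The 95% interval of the change lay within 1 log2 unit of 0 in either direction for 21 of 23 replication genes and all 25 mitosis genes, so a 2-fold difference between these lines lies outside the interval for those. Values of 393LN lay wholly above those of 393P for 5 replication genes and wholly below for 1, where 6.69% and 3.57% of all genes did (10.3% in either direction). The plot of every gene's change gives the 3 comparisons side by side.

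**Figure D1:**
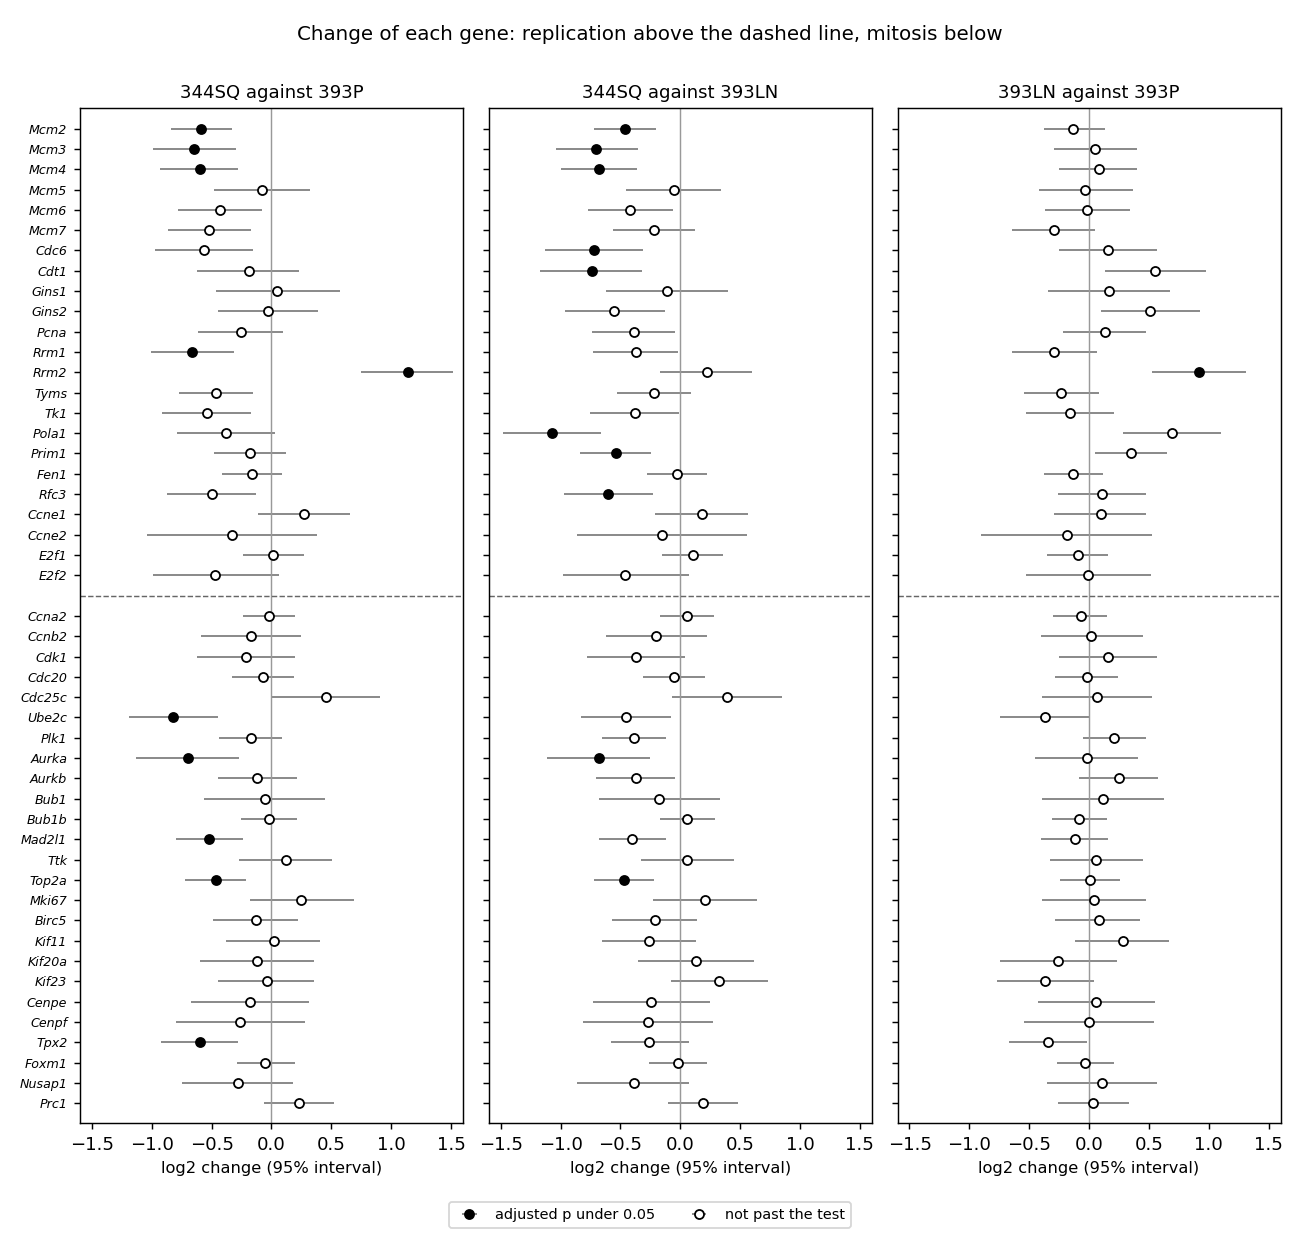
Log2 change (x axis, 95% interval as a line) of the 48 genes in 3 comparisons, with the 23 replication genes above the dashed line and the 25 mitosis genes below it. Filled points passed the test at an adjusted p under 0.05: 10 genes in 344SQ against 393P, 10 in 344SQ against 393LN and 1 in 393LN against 393P. Rrm2 lies furthest to the right in both comparisons with 393P, and Cdc25c, which did not pass, in 344SQ against 393LN.

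These counts moved with single arrays. Without 344SQ replicate 1, 3 replication genes (Mcm2, Tyms, Rrm2) and 1 mitosis gene (Ube2c) passed against 393P, and 3 replication genes (Mcm3, Mcm4, Pola1) and 0 mitosis genes against 393LN. The medians were then -0.21 and -0.02 against 393P, and -0.34 and -0.12 against 393LN. The count over all 18193 genes fell too, from 1907 to 1502 against 393P and from 1984 to 1393 against 393LN. Leaving out 393P replicate 2 or 393P replicate 3 left 2 replication genes (Mcm2, Rrm2) and 1 mitosis gene (Ube2c) past the test against 393P, whereas leaving out 393P replicate 1 gave 8 and 6, and leaving out 344SQ replicate 2 gave 3 and 3. Over all genes 1329, 1259, 1925 and 1321 passed against 393P without these arrays, in the order named. Against 393LN, 3 replication genes were left without 344SQ replicate 2 (Mcm2, Mcm4, Pola1) or 393LN replicate 3 (Mcm3, Mcm4, Pola1), 4 without 393LN replicate 1 and 5 without 344SQ replicate 3. The counts over all genes against 393LN were then 1167, 1343, 1660 and 1525, in the same order. The mitosis genes numbered 0 or 1 there without 344SQ replicate 1, 2 or 4, 393LN replicate 1, 2 or 3, or 393P replicate 2. Between 393LN and 393P, Rrm2 did not pass without 393LN replicate 3 or 393P replicate 3 or 4, and Pola1 joined it without 344SQ replicate 1. Of the 21 calls, 5 held whichever array was left out: Mcm2, Rrm2 and Ube2c in 344SQ against 393P, and Mcm4 and Pola1 in 344SQ against 393LN.

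The MCM helicase unwinds DNA at the fork and is a ring of Mcm2 to Mcm7. In 344SQ, 3 of these 6 subunit genes fell against each 393 line, and all 6 changes were below 0 in both comparisons. Mcm2 was at 11.02, 11.22, 11.10 and 11.03 on 344SQ replicates 1 to 4, at 11.80, 11.30, 11.70 and 11.42 on 393LN, and at 11.70, 11.75, 11.70 and 11.58 on 393P. Every 344SQ value lay below every value of the other lines, and the 4 values of 344SQ spanned a narrow range. Mcm2 fell by 0.59 (SE 0.12, 1.5-fold, adjusted p = 0.00781) against 393P and by 0.46 (SE 0.12, adjusted p = 0.0275) against 393LN. The second call ended without any of 5 arrays (344SQ replicates 1, 3 and 4 and 393LN replicates 1 and 3), with an adjusted p of at most 0.0752. Mcm3 was at 10.16, 10.15, 10.51 and 10.46 on 344SQ, at 11.11, 10.81, 11.32 and 10.82 on 393LN, and at 10.92, 11.30, 10.94 and 10.69 on 393P. Again no 344SQ value reached the lowest of the 393 lines. Mcm3 fell by 0.65 (SE 0.16, adjusted p = 0.0221) against 393P. Leaving out 344SQ replicate 1 or 2 or 393P replicate 2 or 3 ended that call (adjusted p up to 0.0676). Against 393LN it fell by 0.70 (SE 0.16, adjusted p = 0.0159; 0.0531 without 344SQ replicate 2).

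Mcm4 was at 10.58, 10.92, 11.09 and 11.03 on 344SQ, at 11.67, 11.77, 11.70 and 11.21 on 393LN, and at 11.59, 11.57, 11.56 and 11.32 on 393P. The 344SQ values again lay below all others, with replicate 1 the lowest. The gene fell by 0.60 (SE 0.15, adjusted p = 0.0224) against 393P and by 0.68 (SE 0.15, adjusted p = 0.013) against 393LN. Without 344SQ replicate 1 or 2 or 393P replicate 2 or 3 the first of these ended (adjusted p up to 0.0618). Mcm5, Mcm6 and Mcm7, the other subunits, passed in no comparison. Against 393P their log2 changes were -0.08, -0.43 and -0.52 (adjusted p = 0.851, 0.121 and 0.0575), and against 393LN -0.05, -0.42 and -0.22. The 95% interval against 393P ran from -0.48 to 0.32 for Mcm5 and from -0.99 to -0.30 for Mcm3, and the difference between subunits was not tested.

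The licensing factors Cdc6 and Cdt1 load the helicase onto origins. Both fell in 344SQ against 393LN. Cdc6 was at 8.17, 8.53, 8.63 and 8.72 on 344SQ, at 9.54, 8.86, 9.43 and 9.08 on 393LN, and at 8.88, 9.45, 9.15 and 8.80 on 393P. No 344SQ value reached those of the 393 lines, which overlapped each other. Cdc6 fell by 0.72 (SE 0.19, 1.64-fold, adjusted p = 0.0309) against 393LN, and its log2 change against 393P was -0.56 (adjusted p = 0.0855). Cdt1 was at 10.19, 10.61, 10.97 and 11.10 on 344SQ, at 11.61, 11.45, 11.69 and 11.11 on 393LN, and at 10.85, 11.09, 11.01 and 10.69 on 393P. Here 393LN stood above both other lines, with its replicate 4 close to the highest 344SQ value. Cdt1 fell by 0.74 (SE 0.20, adjusted p = 0.0304) in 344SQ against 393LN, and its log2 change against 393P was -0.19 (adjusted p = 0.631). Each of these 2 calls ended without any of 5 arrays, with adjusted p up to 0.0862 for Cdc6 (344SQ replicates 1 to 3, 393LN replicates 1 and 3) and 0.0851 for Cdt1 (344SQ replicates 1 and 2, 393LN replicates 1 to 3). The GINS subunit genes Gins1 and Gins2, whose products join the active helicase, passed in no comparison (log2 changes -0.11 and -0.55 against 393LN, 0.05 and -0.03 against 393P).

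Primase and polymerase alpha lay the first RNA and DNA of each new strand, and here 393LN was the line that stood apart. Pola1 was at 8.43, 9.06, 9.28 and 9.0 on 344SQ, at 10.37, 10.07, 9.97 and 9.65 on 393LN, and at 9.10, 9.41, 9.38 and 9.39 on 393P. All 393LN values lay above all values of both other lines, which overlapped. Pola1 had the largest fall of any of the 48 genes: it was 2.11-fold lower in 344SQ than in 393LN (log2 change -1.07, SE 0.19, adjusted p = 0.00401), with an adjusted p of at most 0.0144 whichever array was left out. Its log2 change in 393LN against 393P was 0.69 (SE 0.19, adjusted p = 0.0801), and in 344SQ against 393P -0.38 (adjusted p = 0.248). Prim1, the catalytic primase subunit, was at 9.52, 10.00, 10.11 and 10.08 on 344SQ, at 10.35, 10.39, 10.72 and 10.41 on 393LN, and at 10.04, 10.11, 10.13 and 10.17 on 393P. The order of the lines was that of Pola1. Prim1 fell by 0.54 (SE 0.14, adjusted p = 0.0275) in 344SQ against 393LN, which ended without 344SQ replicate 1 or 2 or 393LN replicate 3 (adjusted p up to 0.0763).

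The sliding clamp Pcna, its loader subunit Rfc3 and the flap nuclease Fen1 act behind the polymerase. Rfc3 was at 8.76, 8.66, 8.97 and 8.81 on 344SQ, at 9.87, 9.13, 9.42 and 9.19 on 393LN, and at 8.94, 9.39, 9.41 and 9.44 on 393P. Its 344SQ values lay below those of 393LN, and 1 of them lay above 393P replicate 1. Rfc3 fell by 0.60 (SE 0.17, adjusted p = 0.0407) against 393LN, the weakest call among the replication genes. It ended without any of 9 arrays (all of 344SQ, 393LN replicates 1 and 3, 393P replicates 2 to 4; adjusted p up to 0.11). Its log2 change against 393P was -0.50 (adjusted p = 0.089). Pcna, one of the 3 brightest of the genes that passed nowhere, averaged 12.41 ± 0.28 in 344SQ, 12.80 ± 0.10 in 393LN and 12.67 ± 0.27 in 393P (SD, n = 4 each). Its log2 changes were -0.39 (adjusted p = 0.154) against 393LN and -0.25 (adjusted p = 0.395) against 393P. The other 2 of these, Mcm7 and Mcm6, are helicase subunits named earlier: Mcm7 averaged 11.84 ± 0.30, 12.06 ± 0.21 and 12.35 ± 0.14 in 344SQ, 393LN and 393P, and Mcm6 averaged 11.57 ± 0.25, 11.98 ± 0.14 and 12 ± 0.29.

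The genes of deoxynucleotide supply did not move together. Ribonucleotide reductase is built of the large subunit Rrm1, which holds the active site, and the small subunit Rrm2, which is made chiefly in S phase. Rrm2 was at 11.09, 11.60, 11.67 and 11.46 on 344SQ, at 11.54, 11.14, 11.34 and 10.93 on 393LN, and at 10.40, 10.50, 10.47 and 9.90 on 393P. Both metastatic lines lay wholly above 393P and overlapped each other. Rrm2 rose 2.20-fold in 344SQ against 393P (log2 change 1.14, SE 0.18, adjusted p = 0.00168) and 1.89-fold in 393LN against 393P (0.92, SE 0.18, adjusted p = 0.0211). The 2 comparisons share the 393P arrays. The call in 344SQ held whichever array was left out (adjusted p at most 0.00803), and that in 393LN ended without 393LN replicate 3 or 393P replicate 3 or 4 (up to 0.0692). In 344SQ against 393LN its log2 change was 0.22 (95% interval -0.17 to 0.60, adjusted p = 0.497).

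Rrm1 went the other way. It was at 10.38, 10.83, 10.88 and 10.53 on 344SQ, at 11.26, 10.57, 11.27 and 11.01 on 393LN, and at 11.30, 11.29, 11.37 and 11.30 on 393P. The 393P arrays agreed closely with each other and lay above every array of the other lines. Rrm1 fell by 0.66 (SE 0.16, adjusted p = 0.0226) in 344SQ against 393P, and its log2 change in 393LN against 393P was -0.29 (adjusted p = 0.444). The fall ended without any of 5 arrays (344SQ replicates 1 and 4, 393P replicates 2 to 4), with an adjusted p of at most 0.0642. The thymidine kinase gene Tk1 and the thymidylate synthase gene Tyms, which make thymidine nucleotides, had log2 changes of -0.54 and -0.46 in 344SQ against 393P (adjusted p = 0.0656 and 0.0623). The Tyms probe set used is dim, at 6.12 to 7.06 over the 12 arrays, and a brighter one that also carries the symbol of a Tyms pseudogene was not used. Tk1 had one of the 3 widest ranges over arrays among the genes that passed nowhere, 1.30 log2 units, and averaged 10.14 ± 0.37 in 344SQ, 10.52 ± 0.12 in 393LN and 10.68 ± 0.19 in 393P.

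**Figure D2:**
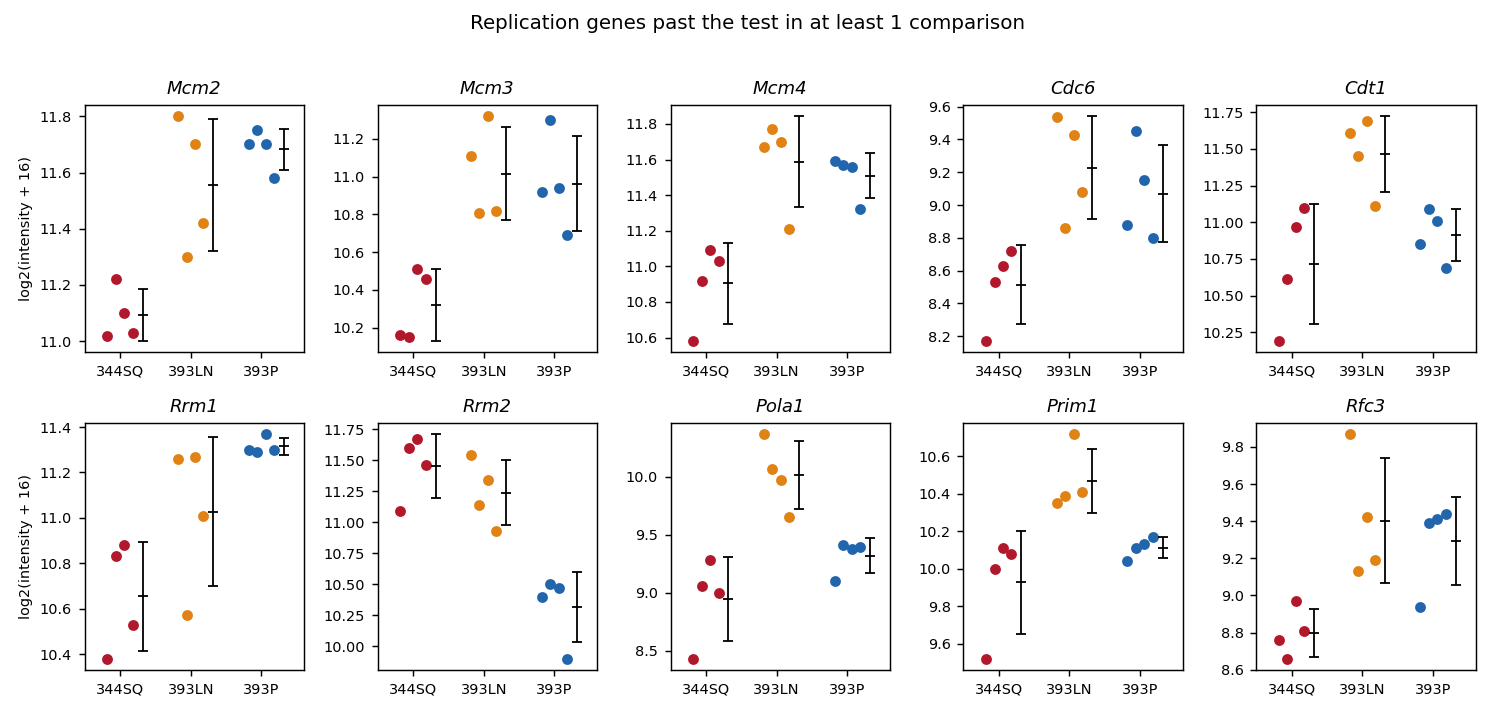
Levels, log2(intensity + 16) on the y axis (ranges differ between panels and do not start at 0), of the 10 replication genes that passed the test in at least 1 comparison, with a point for each of the 4 arrays of 344SQ, 393LN and 393P and bars for the mean ± SD. In 9 panels the 344SQ mean is the lowest of the 3 lines; in that of Rrm2 it is the highest, at 11.45 against 10.32 in 393P.

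The drivers of S phase entry did not pass the test in any comparison. They are the cyclin E genes Ccne1 and Ccne2, whose products activate Cdk2, and the activating transcription factor genes E2f1 and E2f2. Log2 changes in 344SQ against 393P ran from -0.47 (E2f2) to 0.27 (Ccne1), and against 393LN from -0.46 (E2f2) to 0.18 (Ccne1). E2f1 averaged 8.93 ± 0.09 in 344SQ, 8.82 ± 0.18 in 393LN and 8.91 ± 0.17 in 393P, and its 95% interval against 393P was -0.24 to 0.27. Ccne2 and E2f2 had the other 2 of the widest ranges over arrays, 1.67 and 1.49 log2 units, with highest values on 393LN replicate 1 in both. E2f2 averaged 6.78 ± 0.26 in 344SQ, 7.24 ± 0.51 in 393LN and 7.25 ± 0.31 in 393P, and Ccne2 averaged 8.38 ± 0.42, 8.53 ± 0.63 and 8.71 ± 0.50. A pair of other probe sets of these genes passed where the chosen ones did not. A second Ccne1 probe set had log2 changes of -0.95 (adjusted p = 0.0221) against 393P and -1.08 (adjusted p = 0.0127) against 393LN, and a second E2f1 probe set -0.55 (adjusted p = 0.0415) against 393P.

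Among the mitosis genes, the core engine showed no change past the test. Cdk1, the mitotic kinase, its cyclins Ccna2 and Ccnb2, its activating phosphatase Cdc25c and the transcription factor Foxm1 had log2 changes between -0.21 and 0.46 in 344SQ against 393P and between -0.37 and 0.39 against 393LN. Ccna2 averaged 11.44 ± 0.13 in 344SQ, 11.38 ± 0.08 in 393LN and 11.46 ± 0.12 in 393P, and its 95% interval was -0.24 to 0.20 against 393P. Mki67, the gene of the proliferation antigen Ki-67, averaged 10.87 ± 0.12, 10.66 ± 0.29 and 10.62 ± 0.43 in 344SQ, 393LN and 393P. Its log2 change against 393P was 0.25 (95% interval -0.18 to 0.69, adjusted p = 0.52), so a 2-fold fall in 344SQ lies outside the interval.

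Ube2c and Cdc20 serve the anaphase promoting complex, which ends mitosis by marking cyclins for destruction. Ube2c was at 11.06, 11.47, 11.79 and 11.43 on 344SQ, at 12.16, 11.99, 11.74 and 11.68 on 393LN, and at 12.12, 12.40, 12.49 and 12.01 on 393P. The 344SQ values lay below all of 393P, and 393LN lay between them and overlapped both. Ube2c had the largest fall of the mitosis genes, by 0.82 (SE 0.17, 1.76-fold, adjusted p = 0.00959) against 393P, and its adjusted p was at most 0.0349 whichever array was left out. Against 393LN its log2 change was -0.45 (adjusted p = 0.117). Cdc20, the activator of the complex, had log2 changes of -0.07 and -0.05 in 344SQ against 393P and against 393LN.

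The kinase Aurora A, encoded by Aurka, and its activator Tpx2 build the spindle. Aurka averaged 9.25 ± 0.30 in 344SQ, 9.93 ± 0.21 in 393LN and 9.95 ± 0.37 in 393P, and no 344SQ value reached the 393 lines. Aurka fell by 0.70 (SE 0.20, adjusted p = 0.0416) against 393P and by 0.68 (SE 0.20, adjusted p = 0.046) against 393LN. Each of these ended without any of 7 arrays, among them 344SQ replicates 1, 2 and 4, 393LN replicates 2 and 3 and 393P replicate 2 in both, with 393P replicate 3 in the first and 393LN replicate 1 in the second (adjusted p up to 0.119 and 0.125). Tpx2 was at 9.12, 9.5, 9.61 and 9.53 on 344SQ, at 9.90, 9.71, 9.68 and 9.5 on 393LN, and at 10.09, 10.06, 10.30 and 9.72 on 393P. Here too the 344SQ values lay below all of 393P, and 393LN overlapped both. Tpx2 fell by 0.60 (SE 0.15, adjusted p = 0.0225) against 393P, which ended without 344SQ replicate 1 or 393P replicate 2 or 3 (up to 0.0721). The other mitotic kinase genes, Plk1 and Aurkb, did not pass, with log2 changes of -0.17 and -0.12 against 393P and -0.39 and -0.37 against 393LN (adjusted p = 0.0636 and 0.146 against 393LN).

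Mad2l1, Bub1, Bub1b and Ttk encode the spindle checkpoint, which holds the cell until all chromosomes are attached. Only Mad2l1 of these 4 passed. It was at 10.11, 10.43, 10.39 and 10.54 on 344SQ, at 11.06, 10.55, 10.79 and 10.66 on 393LN, and at 10.77, 10.91, 10.94 and 10.92 on 393P. All 344SQ values lay below those of both 393 lines, the closest pair being 10.54 on 344SQ replicate 4 and 10.55 on 393LN replicate 2. Mad2l1 fell by 0.52 (SE 0.13, adjusted p = 0.022) against 393P, which ended without 344SQ replicate 1 or 393P replicate 2, 3 or 4 (adjusted p up to 0.0624), and its log2 change against 393LN was -0.40 (adjusted p = 0.067). Bub1b averaged 10.35 ± 0.07 in 344SQ, 10.29 ± 0.04 in 393LN and 10.37 ± 0.20 in 393P, with a 95% interval of -0.25 to 0.21 against 393P. Bub1 and Ttk had log2 changes of -0.05 and 0.12 against 393P.

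Top2a was at 11.10, 11.19, 11.22 and 11.23 on 344SQ, at 11.73, 11.84, 11.56 and 11.51 on 393LN, and at 11.66, 11.79, 11.78 and 11.38 on 393P. The 344SQ arrays lay close together and below all 8 arrays of the 393 lines. Top2a fell by 0.46 (SE 0.12, adjusted p = 0.0232) against 393P and by 0.47 (SE 0.12, adjusted p = 0.0221) against 393LN. Both calls ended without 344SQ replicate 1 or 2, and also without 393P replicate 2 or 3 in the first and 393LN replicate 1 or 2 in the second (adjusted p up to 0.0741 and 0.0632). Of the 8 genes of the spindle, its motors and its midzone (Kif11, Kif20a, Kif23, Cenpe, Cenpf, Nusap1 and Prc1 beside Tpx2), 7 passed in no comparison, with log2 changes between -0.28 and 0.23 against 393P and between -0.39 and 0.32 against 393LN. The survivin gene Birc5, a chromosomal passenger, had log2 changes of -0.13 and -0.21.

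**Figure D3:**
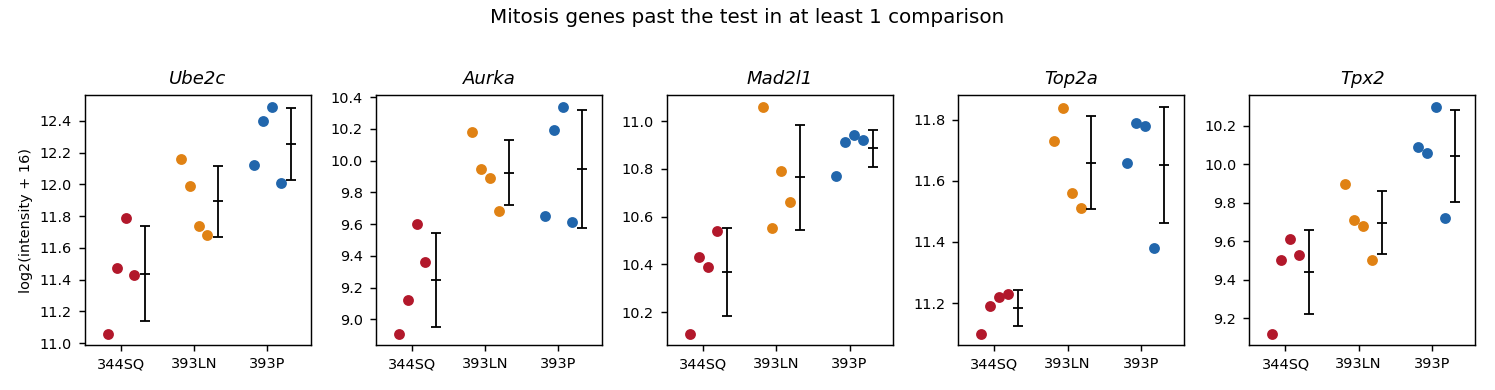
Levels, log2(intensity + 16) on the y axis (ranges differ between panels and do not start at 0), of the 5 mitosis genes that passed the test in at least 1 comparison, with a point for each of the 4 arrays of 344SQ, 393LN and 393P and bars for the mean ± SD. In all 5 panels every 344SQ value lies below every 393P value.

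Replication and mitosis genes were then set side by side on each array, as the mean of each gene's deviation from its own mean over the 12 arrays. The replication mean was -0.49, -0.20, -0.08 and -0.07 on 344SQ replicates 1 to 4, 0.31, 0.05, 0.23 and 0.01 on 393LN, and -0.06, 0.13, 0.18 and -0.03 on 393P. The mitosis mean was -0.37, -0.08, 0.05 and -0.01 on 344SQ, 0.25, 0.06, 0.00 and -0.12 on 393LN, and -0.01, 0.10, 0.27 and -0.14 on 393P. By this mean all 344SQ arrays were below all others for replication, narrowly: 344SQ replicate 4 was at -0.07 and 393P replicate 1 at -0.06. By the median of the deviations these 2 arrays were at -0.05 and -0.07, so the lines overlapped. For mitosis the lines overlapped by the mean, and the lowest array was 344SQ replicate 1. The replication mean lay below the mitosis mean by 0.06 to 0.13 on the 4 344SQ arrays, and their difference ran from -0.01 to 0.23 on 393LN and from -0.09 to 0.11 on 393P. Line means were -0.21 ± 0.20, 0.15 ± 0.14 and 0.06 ± 0.12 for replication in 344SQ, 393LN and 393P, and -0.10 ± 0.19, 0.05 ± 0.15 and 0.06 ± 0.17 for mitosis (SD, n = 4 each). Without 344SQ replicate 1 the 344SQ means were -0.12 ± 0.07 for replication and -0.01 ± 0.07 for mitosis (SD, n = 3).

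**Figure D4:**
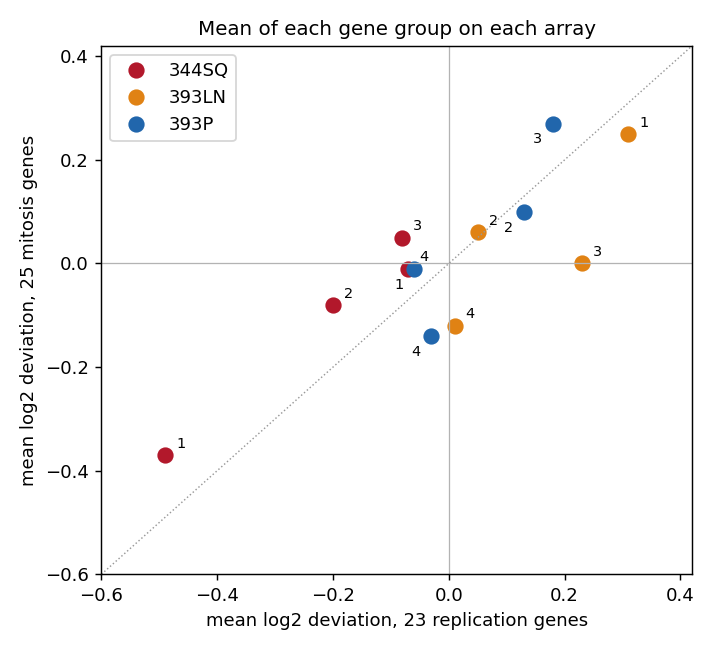
Mean log2 deviation of the 25 mitosis genes (y axis) against that of the 23 replication genes (x axis) on each of 12 arrays, with replicate numbers beside the points (below and to the left for 393P) and a dotted line where the means are equal. 344SQ replicate 1 lies apart at the lower left (-0.49, -0.37), and the 4 344SQ arrays lie above the dotted line.

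**Figure D5:**
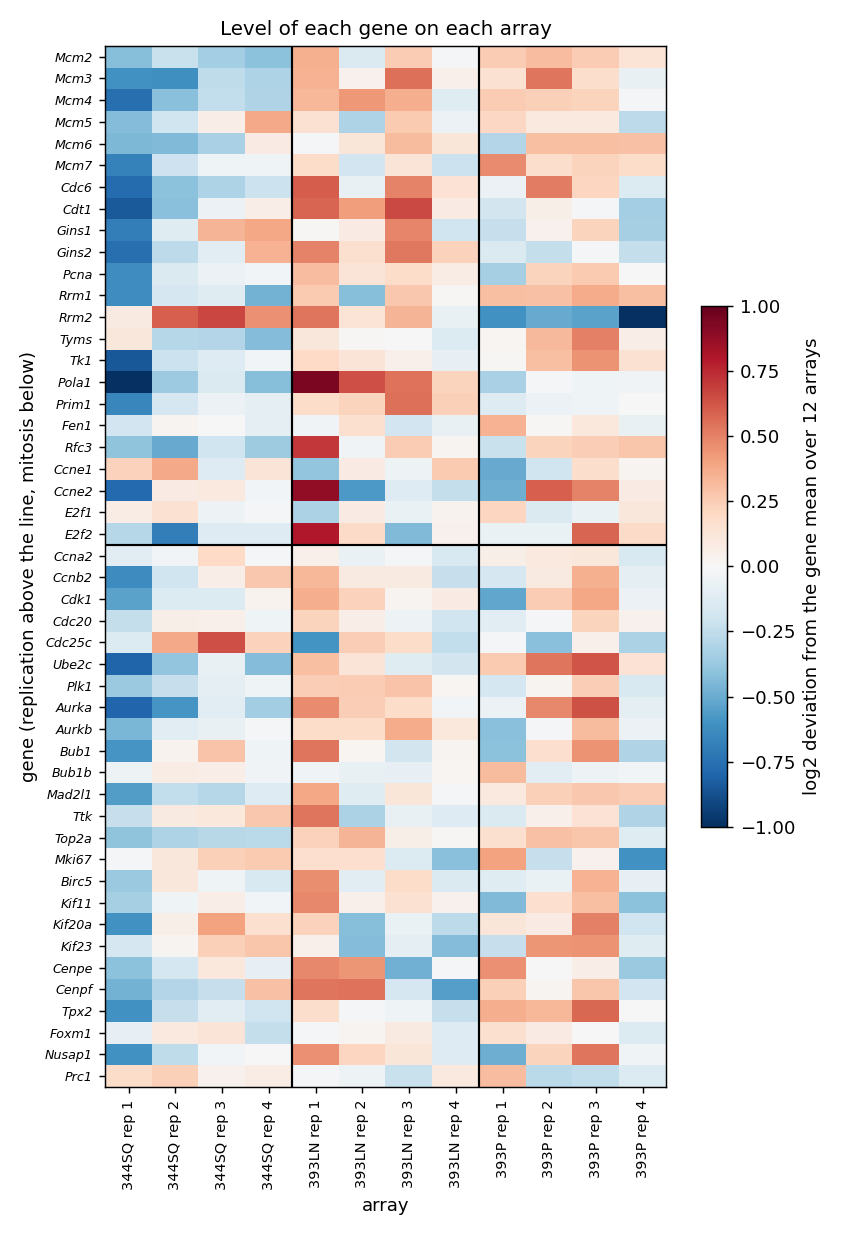
Level of each of the 48 genes on each array as log2 deviation from the gene's mean over the 12 arrays (blue below, red above, colour limits at -1 and 1), with columns for 344SQ, 393LN and 393P replicates and replication genes above the horizontal line. The first column, 344SQ replicate 1, is the lowest for 30 genes, and the row of Rrm2 runs opposite to its neighbours.

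Genes of the same pathways outside the 49 were counted in the same way. Of 40 other measured replication genes, 8 fell and none rose in 344SQ against 393P (median log2 change -0.23), 10 fell and none rose against 393LN (-0.36), and 2 rose in 393LN against 393P (-0.00). These are 20%, 25% and 5% of the list, where 10.5%, 10.9% and 2.45% of all genes passed. Under an unadjusted p of 0.05 were 16 of 40 against 393P and 24 of 40 against 393LN, beside 23.6% and 25.7% of all genes. Without 344SQ replicate 1, 6 fell against 393P (median -0.18) and 5 against 393LN (-0.28). In that fit 1502 and 1393 of all 18193 genes passed. Against 393LN 6 fell without 344SQ replicate 2 or 393LN replicate 3, and the 2 in 393LN against 393P became 0 or 1 without 344SQ replicate 2, any 393LN array or any 393P array. Those with the smallest p were Rfc5 and Rfc2, clamp loader subunits, Gins4, the partner of Gins1 and Gins2, and Rpa3, a subunit of the single-strand binding protein. Rfc5 averaged 10.24 ± 0.22 in 344SQ, 10.79 ± 0.13 in 393LN and 11.03 ± 0.14 in 393P, and fell by 0.79 (SE 0.13, adjusted p = 0.002) against 393P. Rpa3 averaged 9.97 ± 0.35, 10.53 ± 0.43 and 11.01 ± 0.05 in the same order and fell by 1.04 (SE 0.21, adjusted p = 0.00774) against 393P. Gins4 fell by 0.83 (SE 0.16, adjusted p = 0.00717) against 393LN and Rfc2 by 0.56 (SE 0.11, adjusted p = 0.00662) against 393P. These 4 calls held whichever array was left out, with adjusted p of at most 0.0257. Rpa3 fell by 0.93 and Rfc5 by 0.69 against 393P without 344SQ replicate 1.

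Of 50 other measured mitosis genes, 6 fell and 1 rose against 393P (median -0.25), 3 fell and 1 rose against 393LN (-0.21), and 0 passed between 393LN and 393P, where 3 (15.7% of all genes) were under an unadjusted p of 0.05. The shares that passed, 14% and 8%, stand beside 10.5% and 10.9% of all genes. Under an unadjusted p of 0.05 were 18 of 50 against 393P and 16 of 50 against 393LN. Both are above the 23.6% and 25.7% of all genes, unlike the 25 mitosis genes of the first list. Of the 50 changes 42 were below 0 and 8 above against 393P, and 43 below and 7 above against 393LN. Without 344SQ replicate 1, 2 fell and 1 rose against 393P (median -0.17) and 1 fell against 393LN (-0.11). In that fit 1502 and 1393 of all 18193 genes passed. The count against 393P was also 3 without 344SQ replicate 2 or 393P replicate 2 or 3, and 4 without 344SQ replicate 3 or 393LN replicate 3 or 4. Against 393LN it was 1 without 393LN replicate 1 and 2 without 344SQ replicate 2 or 393LN replicate 2 or 3. The kinesin gene Kif15 was the one that rose, by 0.82 (SE 0.16, adjusted p = 0.00594) against 393P, on a dim probe set at 6.31 to 6.92 on 344SQ and 5.65 to 6.06 on 393P. The condensin gene Ncapd2 fell by 0.54 (adjusted p = 0.00928) and Cdca2, which recruits a phosphatase to chromatin, by 1.05 (adjusted p = 0.013) against 393P, and the kinesin gene Kif4 fell by 0.65 (adjusted p = 0.0088) against 393LN. These 4 calls held whichever array was left out, with adjusted p of at most 0.0373. Among the 344SQ arrays Cdca2 was lowest on replicate 1 (7.33, the rest 8.12 to 8.70), and without that array it fell by 0.79 (adjusted p = 0.00978) against 393P.

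The tumours hold cells other than the cancer cells, and cell type markers were read on the same arrays. Over all genes, 5.62% were lower in 344SQ than in 393P and 6.92% lower than in 393LN. Those that passed in either direction made up 10.5% and 10.9% of all genes. Of 11 epithelial markers, 4 (36.4%: Epcam, Cldn3, Cldn4 and Cldn7) fell in 344SQ against either 393 line. The keratins and Cdh1 were bright in all 3 lines, and the lung factor Nkx2-1 was at the floor on 6 of 12 arrays. The mean epithelial level was 10.17 to 10.71 on 344SQ, 11.67 to 11.97 on 393LN and 11.62 to 12.05 on 393P. Of 12 macrophage markers 3 (25%) fell in 344SQ against 393P and 2 (16.7%) against 393LN. Their mean level was 10.32 to 11.11 on 344SQ, 10.78 to 11.32 on 393LN and 10.95 to 11.60 on 393P. Of 7 neutrophil markers 2 (28.6%) and 1 (14.3%) fell, with mean levels of 7.92 to 10.33, 9.04 to 9.84 and 9.91 to 10.31 on the 3 lines in the same order. No fibroblast (10), endothelial (10), B and plasma cell (6), erythroid (2) or muscle and fat (7) marker passed in limma in any comparison. Of the fibroblast markers 4 were under an unadjusted p of 0.05 in each comparison of 344SQ, as were 23.6% (393P) and 25.7% (393LN) of all genes. Of the other 4 lists none (0) were in any comparison. The mean level of the endothelial markers was 8.86 to 9.38 on 344SQ, 8.98 to 9.49 on 393LN and 8.86 to 9.32 on 393P. The fibroblast mean level was 11.56 to 11.87 on 344SQ, 11.06 to 11.60 on 393LN and 10.89 to 11.53 on 393P. Of 10 T and NK cell markers 1 (Cd2, 10%) rose in 344SQ against 393P, where 4.86% of all genes were higher. The mean level of these markers was 6.91 to 8.43 on 344SQ, 7.57 to 8.26 on 393LN and 7.20 to 7.98 on 393P. 344SQ replicate 1 had the lowest epithelial mean of the 12 arrays (10.17), the lowest neutrophil mean (7.92), and the highest macrophage (11.11) and T and NK cell (8.43) means of its line. The muscle and fat markers averaged 7.59 to 8.33 except on 393LN replicate 1, where they averaged 9.82. That array also had the highest replication mean deviation (0.31), and without it 4 replication genes, in place of 8, fell in 344SQ against 393LN. The count was 3 without 344SQ replicate 1, 344SQ replicate 2 or 393LN replicate 3. Those arrays had muscle and fat means of 8.33, 7.59 and 8.33. The part of these cells in the levels of the replication and mitosis genes was not tested.

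Most calls could be looked at on a second probe set of the gene. Of the 21 calls, 18 had another probe set with that symbol alone. In 8 of these another one passed in the same direction, in none in the opposite one, and in 10 no other passed (adjusted over the 34945 probe sets with 1 symbol). Both further Rrm2 probe sets rose, with log2 changes of 1.34 and 1.26 in 344SQ against 393P and 1.37 and 1.11 in 393LN against 393P. A second Mcm2 probe set fell by 0.90 against 393P and 0.88 against 393LN, and 2 of 4 further Mcm3 probe sets fell in both. A second Rfc3 probe set fell by 0.80 against 393LN and, unlike the first, also against 393P, by 0.98 (adjusted p = 0.00703). A further Fen1 probe set fell by 0.64 (adjusted p = 0.0483) against 393LN. Others did not bear the call out: a bright second Rrm1 probe set, at a mean of 10.35, had a log2 change of -0.38 (SE 0.40, adjusted p = 0.677) against 393P, a second Tpx2 probe set -0.04 (SE 0.21, adjusted p = 0.955), and a dim second Pola1 probe set, at a mean of 6.68, 0.40 (SE 0.28, adjusted p = 0.457) against 393LN. Averaging all probe sets of a gene ended the calls of Rrm1, Pola1 (adjusted p = 0.204), Aurka, Top2a and Tpx2, and taking the one of largest variance ended those of Mcm4, Cdt1, Rrm1, Aurka, Top2a and Tpx2. Fitting only the arrays of the 2 lines compared ended the calls of Mcm2, Cdt1, Prim1 and Rfc3 against 393LN, of Aurka against 393P and of Rrm2 in 393LN (adjusted p = 0.0555). Prim1 was also not called after quantile normalization, nor Rfc3 and Aurka with a pseudocount of 1.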

How the data were processed

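Total RNA of 12 tumour samples, 4 for each of 3 lines, was hybridised to 1-colour Affymetrix arrays after biotin labelling, per the labels' protocols. This work starts from the probe set intensities the authors deposited, on a linear scale from 1 to 21921. How they were summarised and normalized, and with which software, is not stated in those labels. All values are 2 raised to a power with 2 decimals (100%, tolerance 1e-08 on the power). The design text names a chip that is smaller than the table's 45101 probe sets. The number of arrays limits the precision, and no depth applies.

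Groups came from the labels, and replicate numbers within a line are in accession order and only name samples. From the deposited intensity, log2(intensity + 16) was computed with no further normalization, since array medians lay between 7.19 and 7.29. Of the probe sets 34945 had 1 gene symbol in the annotation, 932 several, 9160 none and 64 were controls. For each of 18193 genes the single-symbol probe set with the highest mean was tested, with no filter on dim genes. 13 genes were at the floor on all arrays. limma 3.58.1 (lmFit, eBayes, R 4.3.3) was fitted to all 12 arrays with 1 mean for each line, 9 residual degrees of freedom, two-sided p and Benjamini-Hochberg adjustment over all genes. Other probe sets were adjusted over the 34945. The procedure was tested on simulated data, with noise drawn independently for each gene and array. Such noise holds no shift shared by many genes of an array, so the test could not judge one. The genes, the marker and pathway lists and the tests were chosen with earlier results of these data known.

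Genes that passed in at least 1 comparison were named with the value on every array, up to 14 by smallest p and the rest by mean and SD. Of the others, the 3 brightest and the 3 with the widest range were named, and of each further pathway list up to 4 that passed. Any other gene named to complete a role group was chosen after its values were seen. Alternatives were other scalings, added constants of 1 and 64, removal of the dimmest 25% or 50% of genes, other probe set choices, fits of the 8 arrays of 2 lines, trend and robust moderation, the actin ratio as a covariate, and leaving out each array. For the further pathway lists and the line means, leaving out arrays was added after seeing the data.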

Additional observations from a re-analysis of the deposited data

Results flagged for a closer look

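In 11 of the 150 groups of 4 arrays examined (48 genes and 2 gene group means in 3 lines), 1 array stood apart from the other 3 by more than Dixon's 95% limit, which chance alone gives in about 1 of 20 groups. In 344SQ this was Ccne2 on replicate 1, at 7.76 where the other arrays of the line were at 8.51 to 8.64. In 393LN, Prim1 was at 10.72 on replicate 3 (others 10.35 to 10.41) and Plk1 at 10.05 on replicate 4 (others 10.28 to 10.32).

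The other 8 were in 393P. On its replicate 1, the array with the highest actin ratio, Mcm6 was at 11.56 (others 12.14 to 12.15), Pola1 at 9.10 (9.38 to 9.41) and Rfc3 at 8.94 (9.39 to 9.44), all low, while Mcm7 was high at 12.56 (12.26 to 12.31). On replicate 3, Rrm1 was at 11.37 (11.29 to 11.30) and Birc5 at 11.34 (10.87 to 10.93). On replicate 4, Mcm4 was at 11.32 (11.56 to 11.59) and Rrm2 at 9.90 (10.40 to 10.50).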

How the results depend on the processing

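No paired analysis was possible because the replicate numbers only follow accession order and mark no shared animal or day. The 21 calls were each redone under 11 other settings and with each of 12 arrays left out. Of these 483 repeats 384 kept the call, 99 kept the direction without passing the test and 0 reversed it, and 7 calls held under all 11 other settings. Among the 7 were Cdc6, Ube2c and Mad2l1, which had no other probe set with their symbol alone. Settings with another probe set choice used the same values for these genes and could not test them. In 344SQ against 393P, 5 replication genes had passed. The count was 8 with quantile normalization and without the dimmest 25% of genes. The 5 mitosis genes became 2 with the mean of all probe sets of a gene or the probe set of largest variance. In 344SQ against 393LN, the 8 replication genes became 4 when only the arrays of those 2 lines were fitted. The 2 mitosis genes became 1 with a pseudocount of 1, 4 with a pseudocount of 64 or without the dimmest 25% or 50%, and 0 with either other choice of probe set. In 393LN against 393P, fitting 2 lines only gave 174 calls over all genes (446 in the fit of 3 lines) and 0 replication genes, and leaving out the dimmest 50% gave 2. Leaving out single arrays gave 1259 to 1932 calls over all genes, 2 to 8 replication genes and 1 to 6 mitosis genes in 344SQ against 393P. In 344SQ against 393LN it gave 1167 to 2481, 3 to 8 and 0 to 2, and in 393LN against 393P 156 to 438, 0 to 2 and 0. Medians ran from -0.46 to -0.21 (replication) and -0.18 to -0.02 (mitosis) in the first comparison, from -0.45 to -0.34 and -0.29 to -0.11 in the second, and from -0.01 to 0.09 and -0.08 to 0.10 in the third. Over all genes, single arrays moved the count by over 1.5 times in 344SQ against 393P (1259 without 393P replicate 3), in 344SQ against 393LN (1167 without 344SQ replicate 2) and in 393LN against 393P (259 without 393LN replicate 2, 167 without 393LN replicate 3, and 193, 156 and 192 without 393P replicates 2, 3 and 4). The cause of these shifts was not tested, beyond the fewer arrays or genes in each fit.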

Other observations

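Genes upstream of replication and mitosis were read from 2 further lists. Of 25 G1 cyclins, kinases and pocket protein genes, 4 rose and 1 fell in 344SQ against 393P (median log2 change -0.05), where 4.86% of all genes were higher and 5.62% lower. Against 393LN 2 rose and 2 fell (median -0.11), where 3.99% of all genes were higher and 6.92% lower. Between 393LN and 393P 0 passed in limma, with 3 of 25 under an unadjusted p of 0.05 (15.7% of all genes). With 344SQ replicate 1 left out, 3 rose and 0 fell against 393P (median -0.04) and 1 rose and 1 fell against 393LN (-0.07). In that fit 1502 and 1393 of all 18193 genes passed. The count of 5 against 393P was 1 to 3 without any 344SQ array or 393P replicate 2, 3 or 4, and without 393P replicate 1 it was made up of 1 that rose and 4 that fell. The count of 4 against 393LN was 1 or 2 without 344SQ replicate 1, 2 or 3, 393LN replicate 1, 2 or 3, or 393P replicate 4. Between 393LN and 393P 1 passed without 393LN replicate 2. Rb1, the retinoblastoma gene that restrains E2F factors, was at 10.29, 10.45, 10.30 and 10.33 on 344SQ, at 10.10, 9.38, 9.94 and 9.62 on 393LN, and at 9.67, 9.75, 9.52 and 9.70 on 393P. It was higher on every 344SQ array than on any array of the 393 lines. Rb1 rose by 0.68 (SE 0.14, adjusted p = 0.00952) against 393P and by 0.58 (SE 0.14, adjusted p = 0.0227) against 393LN. The second call ended without 344SQ replicate 2 or 393LN replicate 2 or 4 (adjusted p up to 0.0679). Its relative Rbl1, the p107 gene, fell by 0.44 (SE 0.11, adjusted p = 0.0267) against 393P, a call that 344SQ replicates 1 and 3 and 393P replicates 2 and 3 each ended when left out (up to 0.0771). Tfdp2, a partner of E2F factors, rose by 0.38 (adjusted p = 0.0295) against 393P and by 0.34 (adjusted p = 0.049) against 393LN. These ended without any of 5 arrays (344SQ replicates 2 to 4, 393P replicates 1 and 2; up to 0.0867) and of 10 (all but 393P replicates 1 and 2; up to 0.121). Myc averaged 11.46 ± 0.12 in 344SQ, 12.73 ± 0.37 in 393LN and 11.85 ± 0.62 in 393P (SD, n = 4 each), and fell by 1.27 (SE 0.27, adjusted p = 0.0113; at most 0.0369 whichever array was left out) in 344SQ against 393LN.

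Of 16 genes of cell cycle inhibitors and checkpoints, 2 fell and 1 rose in 344SQ against 393P (median log2 change -0.10), which is 18.8% of them beside 10.5% of all genes. Against 393LN 1 rose and 0 fell (median -0.17), 6.25% beside 10.9% of all genes. Between 393LN and 393P 0 passed, with 1 of 16 under an unadjusted p of 0.05 (15.7% of all genes). With 344SQ replicate 1 left out the counts were 2 lower and 1 higher against 393P (median -0.02) and 1 lower and 0 higher against 393LN (-0.12). In that fit 1502 and 1393 of all 18193 genes passed. The single call against 393LN became 2 without 344SQ replicate 4, and 0 without 344SQ replicate 2 or 3, 393LN replicate 2, 3 or 4, or 393P replicate 2, 3 or 4. Cdkn1a, the p21 inhibitor gene and a known p53 target, was at 10.60, 10.80, 10.63 and 11.20 on 344SQ, at 11.20, 11.57, 11.31 and 10.95 on 393LN, and at 11.73, 11.79, 11.48 and 11.41 on 393P. The 344SQ values lay wholly below those of 393P and overlapped 393LN. Cdkn1a fell by 0.79 (SE 0.17, adjusted p = 0.00957) against 393P. The checkpoint kinase gene Chek2 fell by 0.56 (SE 0.11, adjusted p = 0.00822) against 393P. Both calls held whichever array was left out (adjusted p at most 0.0333). Cdkn2c, the p18 inhibitor of the cyclin D kinases, rose by 0.53 (SE 0.13, adjusted p = 0.0261) against 393P and by 0.46 (SE 0.13, adjusted p = 0.0448) against 393LN. These ended without any of 6 arrays (344SQ replicates 2 to 4, 393P replicates 2 to 4; up to 0.0683) and of 10 (all but 393LN replicate 1 and 393P replicate 1; up to 0.0979).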
